A study of Zea mays with 12 samples.

Results

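The maize genes for the core histones H2A, H2B, H3 and H4 and for the linker histone H1 were followed across 12 RNA libraries. Members were the genes whose NR or Swiss-Prot description opens with one of these histone names, leaving out the enzymes and chaperones that act on histones. The rule took 79 of the 52932 genes of the deposited table, namely 6 H1, 22 H2A, 15 H2B, 20 H3 and 16 H4 genes. NR descriptions gave 40 of them, Swiss-Prot descriptions gave 60, and 21 were named by both, with 0 disagreements about the class. No description named a centromeric H3.

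Maize (Zea mays) lines called susceptible or resistant to disease in the labels were sampled as whole plants, with and without BV-3, a strain of Bacillus velezensis. The groups were BV-3 susceptible, CK susceptible, BV-3 resistant and CK resistant, with 3 libraries each. CK is the label of the libraries without BV-3, and the labels number the libraries of a group as separate biological samples. The titles carry a code for each line, a number in the CK libraries and a word in the BV-3 libraries, and the labels do not say how these codes relate or whether the same lines were used with and without BV-3. Plant age, the way BV-3 was applied and the time of sampling are not stated in the labels.

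Core histones form the protein spool around which DNA winds into nucleosomes, and H1 sits on the linker DNA between them. The canonical forms of H2A, H2B, H3 and H4 are made mostly while a cell copies its DNA, so that their messages are most abundant in dividing tissue. Replacement variants such as H3.3 and H2A.Z are made through the whole cell cycle and are placed at transcribed or inducible genes, and H2A.X marks DNA breaks. Plant histone messages carry a poly(A) tail, so the poly(A) selection used here captures them.

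By description, the H2A genes divided into 2 H2A.X genes, 12 genes described as H2A.V or H2A variant, and 8 others. H2A.V and H2A variant are the names used for H2A.Z in plants. The 8 others carry none of these variant names and are taken as canonical here. The H3 genes divided into 13 canonical genes described as H3.2 or H3 type 2, 5 genes for H3.3 and 2 for H3.v1. Canonical H2A, H2B, H3.2 and H4 genes, 52 in all, are called the canonical set here. Of the 79 members, 63 passed edgeR's filter on low counts and were tested, 16 did not pass, and 8 had no count in any library. A mean of at least 1 FPKM (fragments scaled to gene model length and to library size) was reached by 61 members. Near-identical histone copies can share reads, and the sources used here do not say how such reads were assigned, so that single gene values are less certain than class sums. A few descriptions were mixed: Zm00001eb371620 is a cyclin in one source and an H4 in the other, Zm00001eb334470 a phospholipase and an H4, and Zm00001eb184170 a dioxygenase and an H2A.V. The domain descriptions of Zm00001eb334470 and Zm00001eb184170 are those of the phospholipase and the dioxygenase, and both genes were kept in their histone classes. The H3.v1 genes rest on the NR name alone, without a core histone domain description, and that of Zm00001eb186830 is SPT2 chromatin protein. A further 20 genes whose description holds a histone H2A name after a word such as probable lie outside the rule.

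Library totals ranged from 27.0 to 37.8 M (mega) counts, and histone genes took 0.13 to 0.773% of them. Line markers were 246 genes above 2 CPM (counts scaled to library size) in each BV-3 susceptible library and 339 above it in each BV-3 resistant library, with at most 2 counts in any BV-3 library of the other line. They gave a check of the line labels of the CK libraries. In the library labelled CK susceptible 1, 98.0% of the susceptible and 0.59% of the resistant markers stood above 1 CPM. In those labelled CK susceptible 2 and 3 the shares were 0.813 and 1.63% of the susceptible markers and 94.4 and 95.0% of the resistant ones, which goes against their label. The library CK resistant 2 stood apart in another way: its summed FPKM over 69 leaf genes (photosystem, light-harvesting and Rubisco small subunit genes) was 1820, against 14600 to 52700 in the other 11 libraries. Its summed FPKM over 446 cytosolic ribosomal protein genes was 81300, against 9610 to 21500 in the others. Root markers were scarce in the labelled whole plants, with 2 of 7 reaching a mean of 1 FPKM. Their sum was 14.7 FPKM in BV-3 resistant 2, 32.9 FPKM in BV-3 resistant 3 and 17.9 FPKM in CK resistant 2. In the other libraries it was 0.972 to 4.27 FPKM. Counts of called histone genes are given with and without the 3 libraries in doubt (CK susceptible 2 and 3 and CK resistant 2) where they change.

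The canonical set was high in 3 libraries and low in the other 9. Its summed FPKM was 816, 1231 and 637 in BV-3 susceptible libraries 1 to 3, against 835, 616 and 348 in the libraries labelled CK susceptible. It was 930, 4786 and 1959 in BV-3 resistant libraries 1 to 3, against 539, 5316 and 604 in CK resistant libraries. BV-3 resistant 2 and CK resistant 2 thus stood together far above the rest, with BV-3 resistant 3 between them and the others, and the groups overlapped in both lines. The sums averaged 2558 ± 1996 FPKM in BV-3 resistant and 2153 ± 2740 FPKM in CK resistant libraries (SD, n = 3 each), so the spread within either group exceeded the difference between them.

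**Figure D1:**
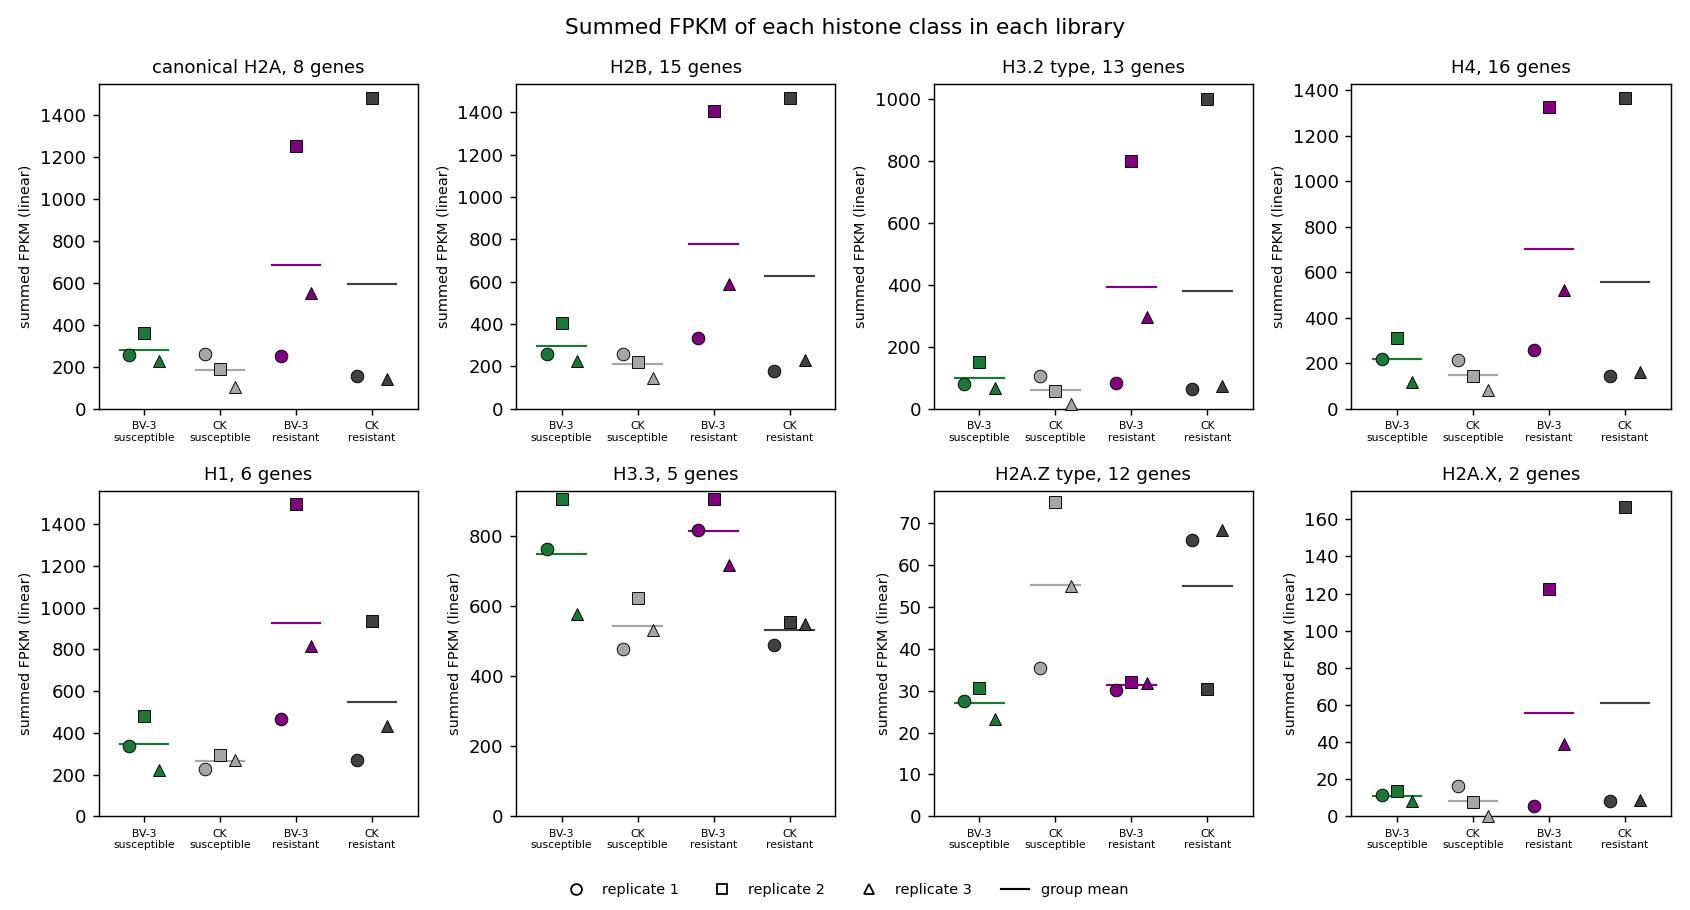
Summed FPKM (linear axis from 0) of 8 histone classes in the 12 libraries, by group; points are libraries, with the marker shape giving the replicate number, and bars are group means. The canonical classes and H1 peak in BV-3 resistant 2 and CK resistant 2, whereas H3.3 sums stay between 478 and 905 FPKM and H2A.Z sums in all 6 BV-3 libraries lie below those of CK susceptible 2 and 3 and CK resistant 1 and 3.

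This pattern ran through each canonical class. The 13 genes for canonical H3, which packages newly copied DNA, summed to 83.6, 799 and 296 FPKM in BV-3 resistant libraries, against 63.1, 1000.02 and 72.2 FPKM in CK resistant libraries. The same genes summed to 80.1, 150 and 67.4 FPKM in BV-3 susceptible libraries, against 104, 57.9 and 16.4 FPKM in those labelled CK susceptible. By the ratio of the highest to the lowest library, canonical H3 spanned the widest range of the 4 canonical classes, from its low in CK susceptible 3 to its high in CK resistant 2. H4, its partner in the nucleosome core, summed to 257, 1325 and 522 FPKM in BV-3 resistant libraries, against 145, 1364 and 160 FPKM in CK resistant libraries. H2B summed to 336, 1406 and 589 FPKM in BV-3 resistant libraries, against 177, 1470 and 229 FPKM in CK resistant libraries. Canonical H2A, which pairs with H2B, summed to 254, 1255 and 552 FPKM in BV-3 resistant libraries, against 154, 1482 and 143 FPKM in CK resistant libraries. In all 4 classes the second library of both resistant groups was the highest.

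Gene by gene the picture was the same. Of the 41 canonical genes with a mean of at least 1 FPKM, 40 had CK resistant 2 and BV-3 resistant 2 as their highest pair of libraries, and for 36 BV-3 resistant 3 came next. The ratio of CK resistant 2 to the mean of CK resistant 1 and 3 had a median of 12.4 over these genes, and that of BV-3 resistant 2 to BV-3 resistant 1 had a median of 8.31. The exception was the H2B gene Zm00001eb148540, listed at 0 FPKM in CK resistant 2. Its values were 3.35, 43.4 and 0 FPKM in BV-3 resistant libraries, against 0, 0 and 2.64 FPKM in CK resistant libraries.

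**Figure D2:**
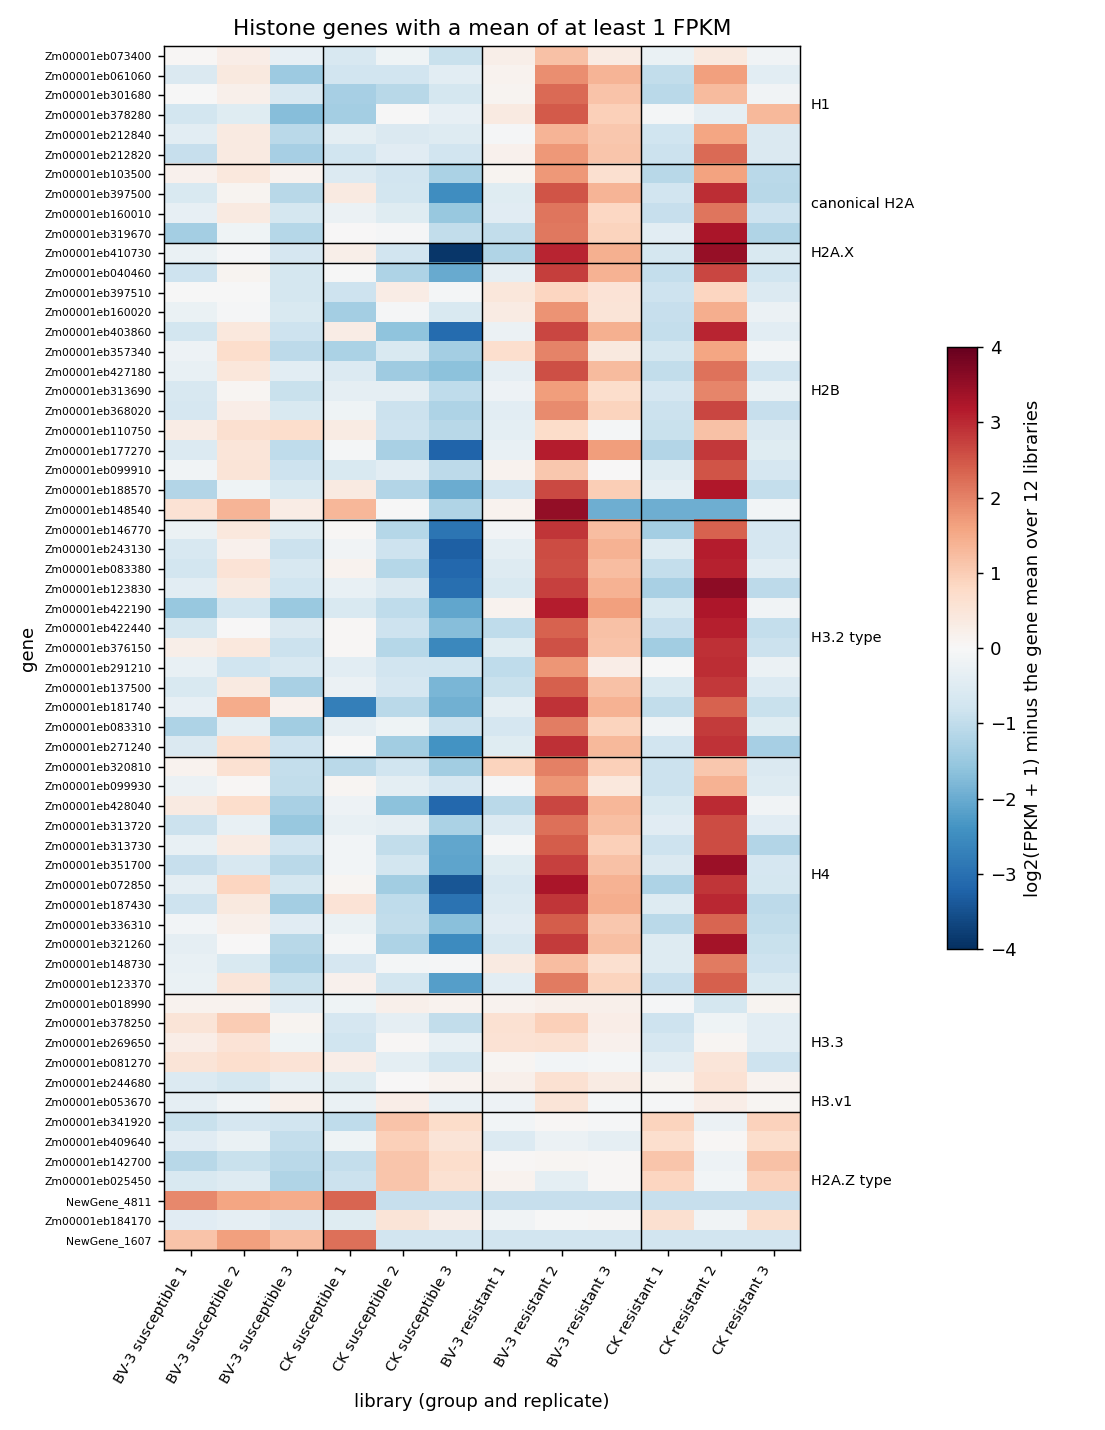
Level of the 61 histone genes averaging 1 FPKM or more in the 12 libraries, as log2(FPKM + 1) minus the mean of the gene, with rows grouped by class and columns by group. Canonical genes are red in BV-3 resistant 2, BV-3 resistant 3 and CK resistant 2, H3.3 rows are pale throughout, and the NewGene rows at the bottom are red only in BV-3 susceptible libraries and CK susceptible 1.

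Among single canonical genes, the H2A gene Zm00001eb103500 was the most abundant by mean FPKM. It measured 145, 171 and 140 FPKM in BV-3 susceptible libraries, against 87.3, 74.4 and 52.1 FPKM in those labelled CK susceptible, groups that did not overlap. It measured 139, 425 and 201 FPKM in BV-3 resistant libraries, against 58.2, 390 and 59.7 FPKM in CK resistant libraries, groups that overlapped through CK resistant 2. The H4 gene Zm00001eb320810 followed a similar order, with 106, 229 and 110 FPKM in BV-3 resistant libraries, against 30.3, 120 and 37.0 FPKM in CK resistant libraries. A wider range was seen for the H4 gene Zm00001eb428040, with 11.8, 170 and 66.1 FPKM in BV-3 resistant libraries, against 16.5, 211 and 23.5 FPKM in CK resistant libraries. That gene reached 33.4, 42.9 and 9.91 FPKM in BV-3 susceptible libraries, against 22.4, 7.65 and 2.07 FPKM in those labelled CK susceptible.

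Histone genes with adjoining identifiers did not always share a range. The H2A gene Zm00001eb397500 and the H2B gene Zm00001eb397510 are next to each other in the numbering, yet the ratio of the highest to the lowest library was 47.8 for the H2A gene and 3.33 for the H2B gene, the smallest such ratio of any canonical gene. Zm00001eb397510 measured 65.3, 86.7 and 69.5 FPKM in BV-3 resistant libraries, against 26.2, 86.6 and 31.8 FPKM in CK resistant libraries. The neighbouring pair Zm00001eb160010 (H2A) and Zm00001eb160020 (H2B) had ratios of 12.9 and 9.33. Over the 38 canonical genes with no library at 0, the median ratio was 30.7.

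The only H2A.X member with counts, Zm00001eb410730, was highest in the same libraries as the canonical set. It measured 5.44, 123 and 38.9 FPKM in BV-3 resistant libraries, against 8.12, 167 and 8.69 FPKM in CK resistant libraries. In BV-3 susceptible libraries it measured 11.4, 13.6 and 8.30 FPKM, against 16.4, 7.81 and 0 FPKM in those labelled CK susceptible. The groups overlapped in both lines. The second H2A.X member had no count.

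Linker histone H1 shared part of the pattern at smaller ratios. The 6 genes summed to 467, 1495 and 818 FPKM in BV-3 resistant libraries, against 270, 936 and 430 FPKM in CK resistant libraries. They summed to 339, 480 and 223 FPKM in BV-3 susceptible libraries, against 226, 295 and 269 FPKM in those labelled CK susceptible. For H1 the highest library was BV-3 resistant 2 rather than CK resistant 2. Zm00001eb378280 differed from the other H1 genes in that its CK resistant 2 value was its lowest of that group. It had 73, 312 and 109 FPKM in BV-3 resistant libraries, against 52.6, 43.2 and 139 FPKM in CK resistant libraries. The most abundant H1 gene, Zm00001eb073400, was the steadiest, with 134, 260 and 145 FPKM in BV-3 resistant libraries, against 95.7, 150 and 104 FPKM in CK resistant libraries.

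As a sum, replacement H3.3 did not take part in the peaks of the canonical set. Of its 5 genes, 4 were higher in CK resistant 2 than in CK resistant 1 and 3. The ratio of CK resistant 2 to the mean of CK resistant 1 and 3 had a median of 1.37 over the 5 genes. The H3.3 genes summed to 816, 904 and 717 FPKM in BV-3 resistant libraries, against 487, 553 and 549 FPKM in CK resistant libraries, groups that did not overlap. They summed to 762, 905 and 577 FPKM in BV-3 susceptible libraries, against 478, 622 and 530 FPKM in those labelled CK susceptible, groups that overlapped. The sum of canonical H3 divided by that of H3.3 was 0.102, 0.884 and 0.412 in BV-3 resistant libraries, against 0.13, 1.81 and 0.132 in CK resistant libraries. The same ratio was 0.105, 0.165 and 0.117 in BV-3 susceptible libraries, against 0.218, 0.0931 and 0.0308 in those labelled CK susceptible. H3.3 messages outnumbered canonical H3 messages per length in every library other than CK resistant 2.

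Zm00001eb378250, an H3.3 gene, was the only member that edgeR called in any of the 5 comparisons with all 12 libraries. It measured 236, 335 and 178 FPKM in BV-3 susceptible libraries, against 103, 129 and 84.1 FPKM in those labelled CK susceptible. It measured 253, 323 and 198 FPKM in BV-3 resistant libraries, against 93.5, 146 and 123 FPKM in CK resistant libraries. In both lines the lowest BV-3 library lay above the highest CK library, CK resistant 2 and all libraries labelled CK susceptible included. In the susceptible comparison it rose by a log2 fold change of 1.24 ± 0.32 (SE), with an adjusted p of 0.0475 by edgeR's quasi-likelihood test over all tested genes. In the resistant comparison its log2 fold change was 1.16 ± 0.32 and its edgeR adjusted p was 0.35, so it was not called there. DESeq2 gave adjusted p-values of 0.00117 in the susceptible and 0.0139 in the resistant comparison. The susceptible call was close to the threshold: without CK susceptible 2 and 3 the log2 fold change of Zm00001eb378250 was 1.23 with an edgeR adjusted p of 0.795, and over all alternatives its adjusted p ranged from 0.00117 to 0.795.

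**Figure D3:**
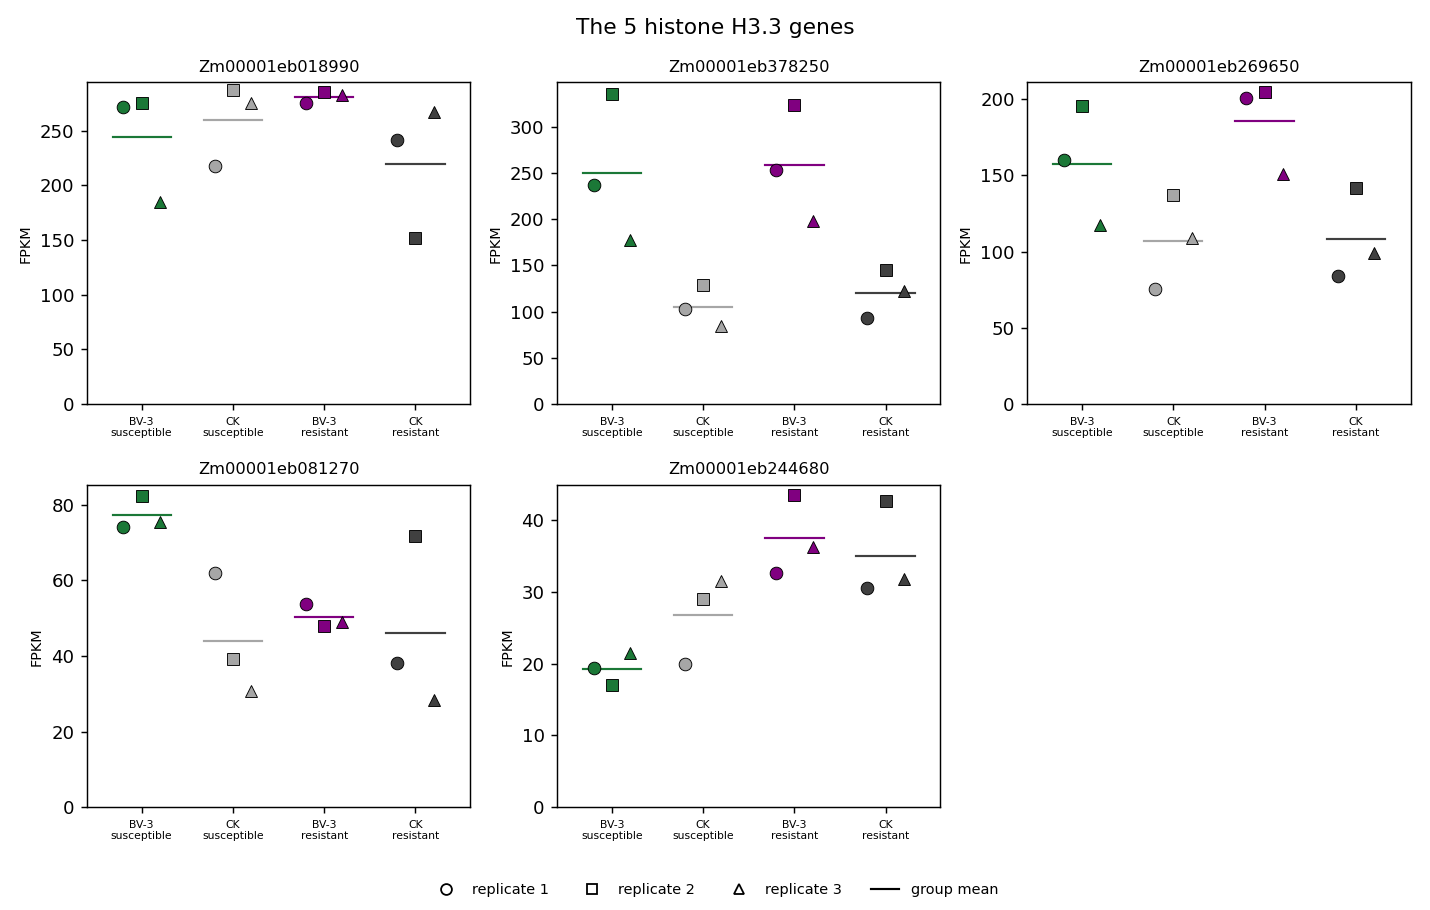
FPKM (linear axis from 0) of the 5 genes for H3.3 in the 12 libraries; points are libraries, with the marker shape giving the replicate number, and bars are group means. Zm00001eb378250 lies between 178 and 335 FPKM in the 6 BV-3 libraries and between 84.1 and 146 FPKM in the 6 CK libraries.

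The other 4 genes for H3.3 differed among themselves. Zm00001eb269650 measured 201, 204 and 151 FPKM in BV-3 resistant libraries, against 83.9, 141 and 99.1 FPKM in CK resistant libraries, with no overlap. Its susceptible values overlapped, at 160, 195 and 117 FPKM with BV-3, against 75.7, 137 and 109 FPKM in the libraries labelled CK. Zm00001eb018990, the most abundant H3.3 gene, had the smallest ratio of highest to lowest library of any H3.3 gene, 1.9, with 272, 275 and 185 FPKM in BV-3 susceptible libraries, against 218, 288 and 275 FPKM in those labelled CK susceptible. Zm00001eb081270 was higher in the susceptible BV-3 libraries than in the resistant ones, with 53.7, 47.8 and 48.9 FPKM in BV-3 resistant libraries, against 74.0, 82.4 and 75.3 FPKM in BV-3 susceptible libraries. Zm00001eb244680 lay the other way round, with 32.6, 43.5 and 36.3 FPKM in BV-3 resistant libraries, against 19.4, 17.0 and 21.4 FPKM in BV-3 susceptible libraries. Neither of these line differences was called by edgeR over all 12 libraries, with adjusted p-values of 0.215 for Zm00001eb081270 and 0.116 for Zm00001eb244680. In CK resistant libraries Zm00001eb081270 measured 38.2, 71.6 and 28.2 FPKM and Zm00001eb244680 measured 30.6, 42.7 and 31.7 FPKM. The highest libraries of Zm00001eb244680 were thus BV-3 resistant 2, CK resistant 2 and BV-3 resistant 3, as for the canonical set, with a highest to lowest ratio of 2.56. The 2 genes for H3.v1 were low, the tested one at 3.04 to 6.50 FPKM in all libraries.

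H2A.Z members did not share the peaks of the canonical set. Among the 12, 4 had no count and 8 were tested, and they fell into 2 kinds. Of the tested genes, 5 annotated ones were low with BV-3 and high in 4 of the 6 CK libraries. The most abundant, Zm00001eb341920, measured 5.52, 6.70 and 6.23 FPKM in BV-3 susceptible libraries, against 4.99, 25.7 and 19.3 FPKM in those labelled CK susceptible. It measured 10.3, 11.6 and 10.9 FPKM in BV-3 resistant libraries, against 21.7, 9.35 and 22.1 FPKM in CK resistant libraries. CK susceptible 2 and 3, whose line markers are those of the resistant line, thus stood close to CK resistant 1 and 3, and CK susceptible 1 stood with the BV-3 susceptible libraries.

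Zm00001eb142700, Zm00001eb025450 and Zm00001eb184170 also had CK susceptible 2 and 3 as their highest libraries of the susceptible groups. Zm00001eb142700 measured 3.14, 3.80 and 3.2 FPKM in BV-3 susceptible libraries, against 3.63, 18.3 and 13.4 FPKM in those labelled CK susceptible. Its resistant values were 8.22, 8.37 and 8.32 FPKM with BV-3, against 18.2, 6.78 and 19.2 FPKM with CK. Zm00001eb409640 was the H2A.Z gene whose groups did not overlap in either line. It had 6.44, 7.41 and 4.26 FPKM in BV-3 susceptible libraries, against 8.05, 18.7 and 13.6 FPKM in those labelled CK susceptible. It had 5.96, 7.69 and 6.97 FPKM in BV-3 resistant libraries, against 15.2, 9.48 and 15.6 FPKM in CK resistant libraries. Its log2 fold changes were -1.15 ± 0.38 in the susceptible and -0.90 ± 0.38 in the resistant comparison, with edgeR adjusted p-values of 0.0856 and 0.476, so neither was called. With CK susceptible 1 as the only CK susceptible library its log2 fold change was -0.47.

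**Figure D4:**
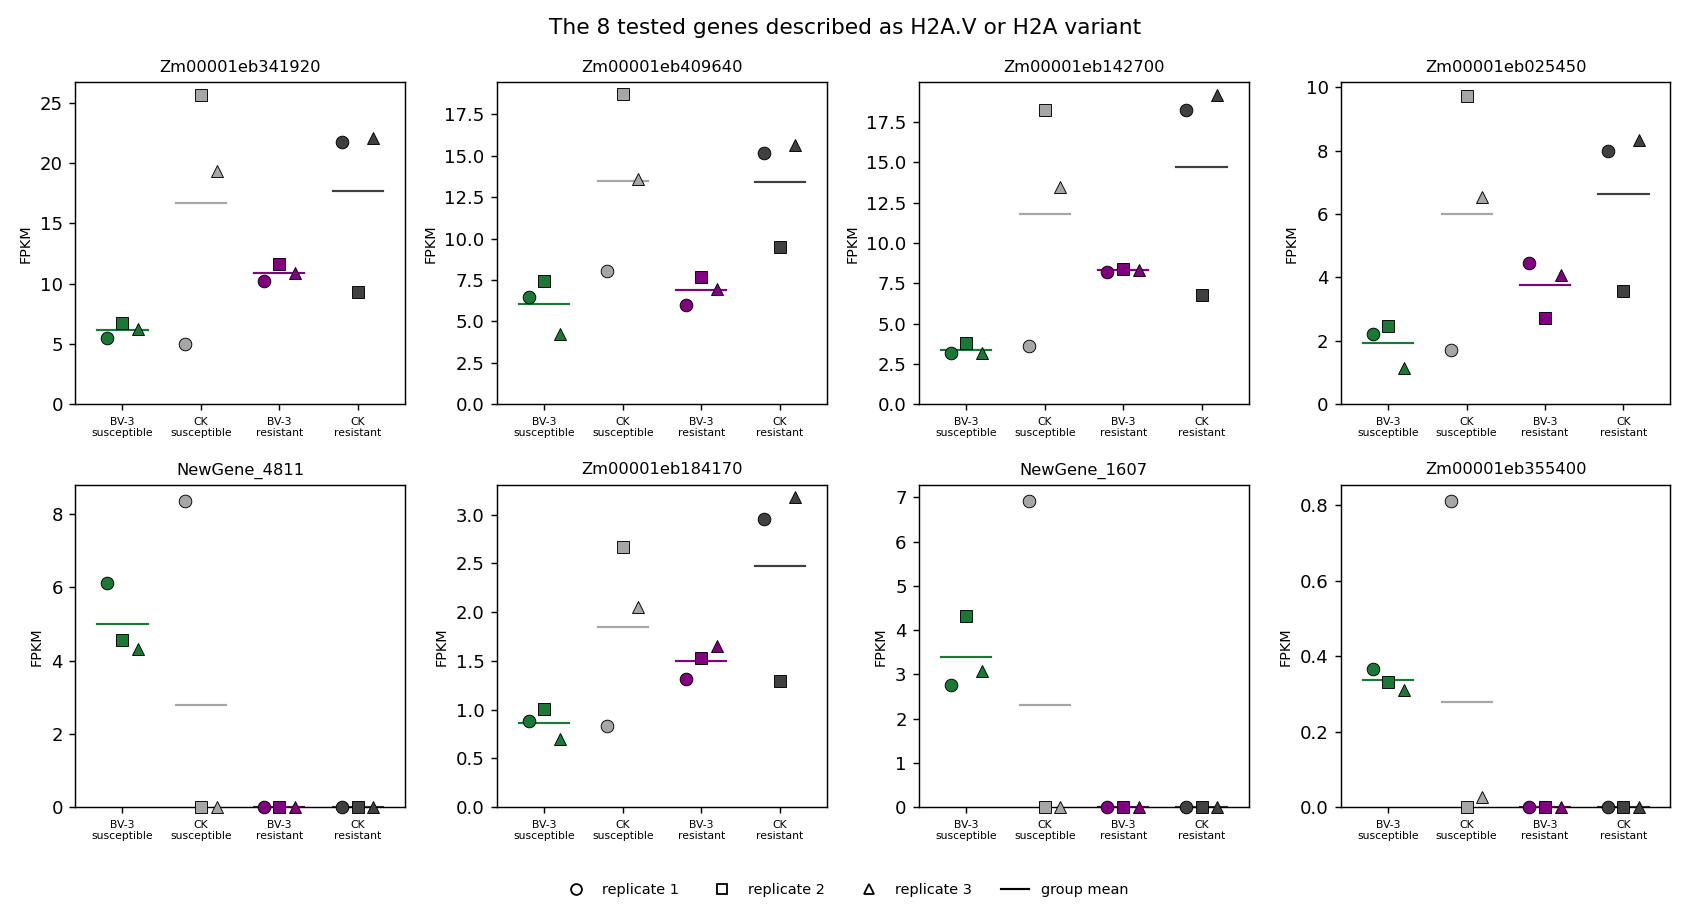
FPKM (linear axis from 0) of the 8 tested H2A.Z genes in the 12 libraries; points are libraries, with the marker shape giving the replicate number, and bars are group means. The 5 genes with annotated identifiers and at least 0.694 FPKM in every library are high in CK susceptible 2 and 3 and CK resistant 1 and 3, and 3 genes (NewGene_4811, NewGene_1607 and Zm00001eb355400) are detected mainly in the BV-3 susceptible libraries and CK susceptible 1.

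The remaining 3 tested H2A.Z genes followed the line markers. NewGene_4811, a model beyond the annotation, had 0 FPKM in all BV-3 resistant libraries, against 6.12, 4.57 and 4.30 FPKM in BV-3 susceptible libraries. It had 0 FPKM in all CK resistant libraries, against 8.36, 0 and 0 FPKM in those labelled CK susceptible. NewGene_1607 had 0 FPKM in all BV-3 resistant libraries, against 2.77, 4.31 and 3.08 FPKM in BV-3 susceptible libraries. Both models belong to the 246 markers of the susceptible line, so their line difference under BV-3 is how those markers were chosen and is no test. Zm00001eb355400 was listed at 0 in BV-3 resistant libraries, against 0.367, 0.33 and 0.311 FPKM in BV-3 susceptible libraries. With a floor of 3 counts in each library (counting error only), the CPM of these genes was at least 72.8-fold (NewGene_4811), 63.7-fold (NewGene_1607) and 6.12-fold (Zm00001eb355400) lower in BV-3 resistant than in BV-3 susceptible libraries.

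BV-3 against CK in the susceptible line asks what the bacterium did to histone messages there. With Zm00001eb378250 as the only call, 1 of 63 tested members was called by edgeR, against 6.20% of all tested genes, and it was higher, as were 2.30% of all tested genes. Unadjusted p-values under 0.05 were found for 6 members, where 26.7% of all genes had one. By limma on log2(FPKM + 1) 1 member was called, against 6.51% of all genes. The median log2 fold change was 0.45 over the 63 members and 0.07 over all tested genes. Of the 42 tested canonical genes, 32 had a positive log2 fold change, with a median of 0.56, and 0 were called. DESeq2 called 5 members, Zm00001eb378250 higher and the H2A.Z genes Zm00001eb025450, Zm00001eb142700, Zm00001eb341920 and Zm00001eb409640 lower, against 20.4% of all genes by that tool. The groups did not overlap for 6 members that were higher with BV-3, where 18.6% of all genes did the same, and for 1 that was lower, where the share over all genes was 14.1%.

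These susceptible values rested on the libraries labelled CK susceptible 2 and 3. Without both, 0 members were called by edgeR, where 0.00% of all genes were called, 2 had unadjusted p-values under 0.05, against 6.26% of all genes, and the member median was -0.11. The canonical median was then -0.15, with 14 genes positive and 29 negative, so its direction turned. Without CK susceptible 1, 7 members were called, against 19.5% of all genes, and without CK resistant 2, 3 members, against 14.9%. The 7 include NewGene_1607 and NewGene_4811, markers of the susceptible line that were at 0 in CK susceptible 2 and 3. Their calls follow the line markers and are no test of BV-3. Leaving out any other single library left 0 members called. CK susceptible 1 alone lay below all 3 BV-3 susceptible libraries for 7 of 42 canonical genes, where 31.3% of all genes did the same, and above them for 11, where the share over all genes was 26.1%.

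BV-3 against CK in the resistant line gave 0 called members by edgeR, with 5 unadjusted p-values under 0.05, against 10.1% of all genes, and 0.00% of all genes were called. DESeq2 called 1 member, Zm00001eb378250, against 3.04% of all genes, and limma on log2(FPKM + 1) called 0, against 0.0292%. The median log2 fold change was 0.10 over the 63 members and -0.07 over all tested genes. For the canonical set the edgeR median was 0.10, with 26 of 42 genes positive, whereas limma, which averages log values, gave a median of 0.72, with 40 of 42 positive. Non-overlapping groups were found for 3 members that were higher with BV-3, all of them H3.3 genes, and 7.71% of all genes did the same. A single member, Zm00001eb409640, was lower without overlap, where the share over all genes was 9.46%.

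Without CK resistant 2 the resistant comparison looked different. All 42 tested canonical genes then had a positive log2 fold change, from 0.36 to 3.52, with a median of 2.31, and the median over all tested genes was 0.01. The value of 0.36 was that of Zm00001eb334470, whose domain description is that of a phospholipase. Over all 63 members the median was 1.96, and 38 members had an unadjusted p under 0.05, against 11.4% of all genes, while edgeR called 0 members and 0.00% of all genes at the adjusted threshold. The 3 BV-3 resistant libraries lay above both remaining CK resistant libraries for 29 of 42 canonical genes, 5 of 6 H1 genes and 5 of 5 H3.3 genes, where 13.3% of all genes did the same. They lay below both for 5 of 8 H2A.Z genes, where the share over all genes was 22.1%. The member median of this comparison turned negative when another library was left out, to -0.24 without CK resistant 1, -0.24 without CK resistant 3 and -0.39 without BV-3 resistant 2. Its sign thus depended on which library was left out.

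**Figure D5:**
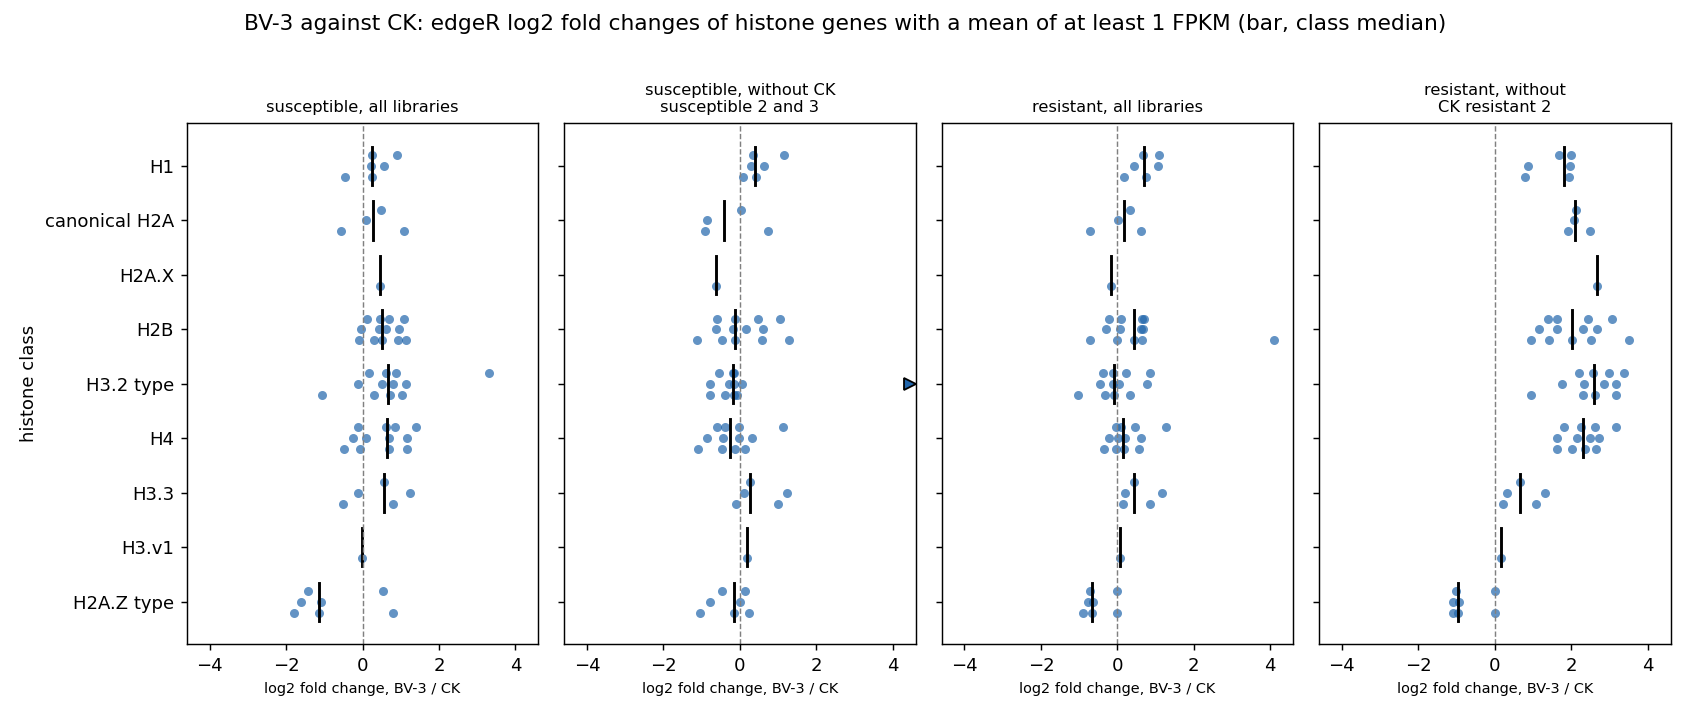
Log2 fold changes (BV-3 over CK, edgeR) of the histone genes with a mean of at least 1 FPKM, by class, for the susceptible and resistant comparisons with all libraries and without the libraries in doubt; points are genes and bars class medians. Canonical class medians lie between -0.10 and 0.43 in the resistant comparison with all libraries and between 2.02 and 2.60 without CK resistant 2, and the arrowhead marks 1 gene, listed at 0 in CK susceptible 1, whose value lies beyond the axis.

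The difference between both BV-3 effects was called for 0 members by edgeR, with 0 unadjusted p-values under 0.05, where 13.7% of all genes had one, and 0.00% of all genes were called. DESeq2 called 0 members too, against 4.95% of all genes, and limma on log2(FPKM + 1) called 0, against 0.00%. Its median was -0.15 over the members and -0.13 over all tested genes. Without CK resistant 2 the member median was 1.59, and 0 members were called. Its sign also turned, to values of at most 0.21, without BV-3 resistant 1, BV-3 resistant 3, BV-3 susceptible 2 or CK susceptible 3.

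Resistant against susceptible plants were also compared within each treatment. The line markers were chosen in the BV-3 libraries and so are no check of those labels. Under BV-3 the canonical set had a positive log2 fold change in 41 of 42 tested genes, with a median of 1.36. The member median was 1.15, against 0.01 over all tested genes. By edgeR 0 members were called, with 9 unadjusted p-values under 0.05, against 21.9% of all genes, and 0.00% of all genes were called. Limma called 1 member on log2(FPKM + 1), against 5.66% of all genes, and 2 on log2(FPKM + 0.1), against 8.98%. DESeq2 called 4 members, all higher in resistant libraries, against 13.8% of all genes: the H1 gene Zm00001eb378280, the H3.3 gene Zm00001eb244680 and the canonical H3 genes Zm00001eb083310 and Zm00001eb422190. The last of these measured 8.77, 76.6 and 26.9 FPKM in BV-3 resistant libraries, against 2.08, 4.34 and 2.17 FPKM in BV-3 susceptible libraries. Groups did not overlap for 13 members that were higher in resistant libraries, or 20.6%, where 20.8% of all genes did the same. They did not overlap for 4 that were lower, NewGene_1607, NewGene_4811, Zm00001eb355400 and Zm00001eb081270, where the share over all genes was 14.7%. NewGene_1607 and NewGene_4811 are line markers chosen on these libraries, so their calls in this comparison are no test under any setting. Both limma calls on log2(FPKM + 0.1) were these models. Without the 3 libraries in doubt, whose removal leaves the BV-3 groups whole but changes the estimate of spread, edgeR called 11 members, 7 higher and 4 lower, against 15.8% of all genes. It called 3 members without CK susceptible 2 and 3, against 9.79% of all genes, and 4 without CK susceptible 1, against 11.8%. A fit of the BV-3 groups only called 9, against 16.8% of all genes.

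Under CK, the libraries labelled resistant and susceptible gave 0 called members by edgeR, with 7 unadjusted p-values under 0.05, against 17.4% of all genes, and 0.00% of all genes were called. DESeq2 called 1 member, Zm00001eb422190, against 4.75% of all genes, and limma on log2(FPKM + 1) called 0. The member median was 1.42, against 0.06 over all tested genes, and without CK resistant 2 it was -0.27. Without the 3 libraries in doubt, with CK susceptible 1 as the only susceptible library, 4 members were called, against 4.53% of all genes: NewGene_1607 and NewGene_4811 lower, and Zm00001eb142700 and Zm00001eb341920 higher in resistant libraries. The log2 fold changes of Zm00001eb142700 and Zm00001eb341920 were then 2.03 and 1.80. Without CK susceptible 2 and 3 alone, NewGene_1607 and NewGene_4811 were called lower, against 3.72% of all genes. Both are susceptible line markers, and CK susceptible 2 and 3 were left out for lacking such markers, so the choice of libraries fixed these calls and they are no test.

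DNA replication and mitosis genes were highest, as lists, in the same 3 libraries as the canonical set. Over 64 DNA replication genes averaging 1 FPKM or more (licensing factors, polymerases, replication factor C and others), the median log2(FPKM + 1) relative to each gene's mean was -0.55, 0.88 and 0.32 in BV-3 resistant libraries, against -0.18, 1.96 and -0.20 in CK resistant libraries. It was -0.28, -0.61 and -0.30 in BV-3 susceptible libraries, against -0.14, -0.22 and -0.69 in those labelled CK susceptible. For the canonical set the corresponding medians were -0.41, 2.43 and 1.16 in BV-3 resistant libraries, against -0.85, 2.68 and -0.68 in CK resistant libraries. Mitosis genes (cyclins A and B, kinesins and aurora kinases) had medians of 0.86 in BV-3 resistant 2, 0.43 in BV-3 resistant 3 and 1.89 in CK resistant 2, and at most -0.17 in the other 9. The histone chaperone and assembly genes (16 averaging 1 FPKM or more) did not share this order, with medians of 0.26 in BV-3 resistant 2, 0.20 in BV-3 resistant 3, 1.04 in CK resistant 2 and 0.27 in CK resistant 3. Nor did the histone-modifying enzymes, whose medians were 0.17 in BV-3 resistant 2, 0.05 in BV-3 resistant 3, 0.09 in CK resistant 1, 0.30 in CK resistant 2 and 0.29 in CK resistant 3. By summed FPKM, CK resistant 2 and BV-3 resistant 2 were highest in both lists, followed by CK resistant 3. These sums were 490, 270 and 249 FPKM for the chaperone and assembly genes and 1698, 1188 and 1163 FPKM for the enzymes.

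The 3 libraries with high canonical histones also had the highest root marker sums, but differed in other markers. The median for ribosomal protein genes was 0.41 in BV-3 resistant 2, 0.40 in BV-3 resistant 3 and 2.30 in CK resistant 2. That for leaf genes was -0.66, 0.95 and -3.49 in the same libraries. BV-3 resistant 2 thus had canonical histones near the level of CK resistant 2 with far more leaf and less ribosomal message. Meristem markers (knotted, rough sheath and WUSCHEL-type homeobox genes) had medians of 0.74 in BV-3 resistant 2, -0.18 in BV-3 resistant 3 and -0.66 in CK resistant 2. Their summed FPKM in CK resistant 2, 89.8, was the lowest of all libraries. Pollen markers had medians of 0.55, 0.02 and 0.39 in the same order. In these bulk samples, a change in the number of dividing cells and a change in histone RNA per cell cannot be told apart. Whether tissue make-up had a part in the histone differences was not tested.

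In the susceptible comparison, 5 of 87 tested DNA replication genes were called, 1 higher and 4 lower, with a median log2 fold change of -0.03, and 3.90% of all tested genes were called lower. Zm00001eb407100, which encodes the large subunit of DNA primase, fell to 2.30, 2.93 and 1.72 FPKM in BV-3 susceptible libraries, against 7.48, 9.76 and 9.60 FPKM in those labelled CK susceptible, CK susceptible 1 included (log2 fold change -1.97 ± 0.42, edgeR adjusted p = 0.04). Of 124 genes of the mitosis list, 1 was called higher and 4 lower, where 2.30% of all tested genes were called higher and 3.90% lower. The gene called higher, Zm00001eb229610, is described as kinesin light chain-related. Zm00001eb413230 and Zm00001eb087210, called lower, are kinesins in the Swiss-Prot description only. Their NR descriptions are glyoxalase I-like and homeodomain leucine zipper protein, so their place in the list is uncertain. CK susceptible 1 lay at 0 to 0.162 FPKM, near the BV-3 susceptible libraries, for Zm00001eb413230, NewGene_24712 and Zm00001eb087210 among the mitosis genes called lower. The same held for NewGene_9690 and Zm00001eb346080 among the replication genes called lower, so these calls rest on CK susceptible 2 and 3. Zm00001eb225330, another replication gene called lower, reached at most 0.199 FPKM in any library. It was at 0 FPKM in BV-3 susceptible libraries, against 0.0155, 0.179 and 0.130 FPKM in those labelled CK susceptible. Among 105 histone-modifying enzymes 2 were called lower, against the same 3.90% of all tested genes. Both were annotated as type B histone acetyltransferase, which acetylates newly made H4. Zm00001eb054310 was at 0 FPKM in all BV-3 susceptible libraries, against 0, 19.5 and 15.7 FPKM in those labelled CK susceptible, so the call rests on CK susceptible 2 and 3. Without CK susceptible 2 and 3 edgeR called 0 genes of these lists, as of all genes, with unadjusted p-values under 0.05 for 5 replication, 3 mitosis and 1 histone-modifying gene. With all libraries, none of the 19 histone chaperone and assembly genes was called by edgeR, with 1 unadjusted p under 0.05, where 26.7% of all genes had one. DESeq2 called 1 of them lower, where it called 20.4% of all genes in either direction. The other 4 comparisons gave 0 calls in these lists by edgeR, where 0.00% of all genes were called.

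The 20 H2A genes outside the rule differed by kind. The 6 of canonical type summed to 239, 734 and 364 FPKM in BV-3 resistant libraries, against 154, 819 and 179 FPKM in CK resistant libraries. The 5 of H2A.X type summed to 7.55, 27.9 and 15.0 FPKM in BV-3 resistant libraries, against 17.7, 184 and 10.0 FPKM in CK resistant libraries, so BV-3 resistant 3 lay below CK resistant 1. The 9 described as H2A variants summed to 61.8, 144 and 93.4 FPKM in BV-3 resistant libraries, against 49.2, 182 and 64.9 FPKM in CK resistant libraries. In BV-3 susceptible libraries these 9 genes summed to 75.7, 104 and 118 FPKM. In those labelled CK susceptible they summed to 67.0, 58.2 and 39.7 FPKM, so they were higher with BV-3 there, without overlap. They were highest in CK resistant 2, where the 5 annotated H2A.Z members were low. The H2A.Z levels and directions above thus do not describe every H2A.Z gene of the table.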

How the data were processed

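RNA of 12 maize libraries, 3 in each of 4 groups, was poly(A)-selected and read as strand-specific paired fragments, per the labels' protocols. The authors deposited 1 table with raw counts and FPKM per gene and library, per the file headers. FPKM values were normalised by the authors for model length and library size. The sources used here do not give the aligner, the counter or the use of strand. B73 RefGen v4 is the build in the submitters' processing notes, while the identifiers follow a later annotation, so no coordinates are given. Of 52934 lines, 2 named no gene and were left out, and 13176 of the remaining 52932 genes were models beyond the annotation (2 of them members). No member identifier matched the RefSeq table of assembly NAM-5.0 by name (0 of 79), and names come from the deposited descriptions.

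Counts were tested with edgeR 4.0.16 (R 4.3.3), with TMM scaling, edgeR's filter on low counts and the quasi-likelihood test. All 12 libraries entered 1 fit of 4 group means, which tested 34291 genes. A call needed an adjusted p (Benjamini-Hochberg, over all of them) under 0.05. The common biological coefficient of variation was 0.682. Alternatives used DESeq2 1.42.0, limma 3.58.1 on log2(FPKM + 1) and log2(FPKM + 0.1), other scalings, filters, libraries and member rules. The scripts were tested on simulated counts. Replicates differed far beyond sampling noise (mean chi-square per gene 72.1 to 489.0). Totals of 27.0 to 37.8 M counts leave counting error small beside this spread. Floors cover counting error only, whereas the SE of a log2 fold change comes from the quasi-likelihood test and includes the fitted spread between replicates.

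The histone genes, the related lists, the tests and the libraries in doubt were chosen with earlier results of these data known. Named were every called member, the 4 most abundant members of each class, all replacement variants, and per comparison the 2 highest and 2 lowest log2 fold changes among tested members with at least 1 FPKM in the higher group. Members named under DESeq2 or another alternative, and the neighbouring H2A and H2B pairs, were chosen after their values were seen. Related lists were patterns over descriptions and hold a few genes outside their theme.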

Additional observations from a re-analysis of the deposited data

How the results depend on the processing

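With all libraries kept, the member median of each comparison stayed within 1 SD of its replicates under every other test, scaling, filter and member rule tried, the rule chosen after seeing the data (adding the 20 H2A genes outside it) included. Within that spread, the median of BV-3 against CK in the resistant line was 0.57 and 0.69 by limma (log2(FPKM + 1) and log2(FPKM + 0.1)), against 0.10, and the difference of both effects changed sign, from -0.15 by edgeR, to 0.07 and 0.04 by limma and 0.08 with members by NR description alone. Calls depended on the setting. For BV-3 against CK in the susceptible line, where 1 member was called, 0 were called with DESeq2-type size factors, limma on log2(FPKM + 0.1), no filter on low counts, the replicate block, only the groups compared, members by NR description alone, without the libraries whose line markers go against their label, and without these and CK resistant 2. DESeq2 called 5 there. The member median was -0.11 without that pair of libraries and -0.12 without all 3. For BV-3 against CK in the resistant line DESeq2 called 1, and without all 3 libraries the median was 1.97. The difference of both effects then had a median of 1.69. Resistant against susceptible under CK, DESeq2 called 1 member, the fit without CK susceptible 2 and 3 called 2 and that without all 3 called 4, with a median of -0.77. Under BV-3, DESeq2 called 4, limma called 1 with log2(FPKM + 1) and 2 with log2(FPKM + 0.1), the fit of only the groups compared called 9, that without CK susceptible 2 and 3 called 3 and that without all 3 called 11. For Zm00001eb341920, resistant against susceptible under CK, the log2 fold change was -0.19 with all libraries and 1.80 without all 3 (edgeR adjusted p = 0.0354), a reversal. Fits that leave CK susceptible with a lone library assume that it varies like the other groups. NewGene_1607 and NewGene_4811 are line markers, so their calls are no test. Both limma calls on log2(FPKM + 0.1) under BV-3 were these models. They were also among the calls under BV-3 in the fit of only the groups compared. The same holds under BV-3 and under CK for the fits without libraries in doubt. The cause of these changes was not tested.

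Leaving out each library in turn gave 0 to 7 calls for BV-3 against CK in the susceptible line, 0 to 4 for resistant against susceptible under BV-3, and 0 to 0 for the other 3 comparisons. NewGene_1607 and NewGene_4811 are among the 7 and among the 4, and as line markers their calls are no test. The medians ranged from 0.0839 to 1.01 (BV-3 against CK, susceptible), -0.39 to 1.96 (BV-3 against CK, resistant), -0.84 to 1.59 (difference of both effects), -0.27 to 1.85 (resistant against susceptible, CK) and 0.64 to 1.54 (resistant against susceptible, BV-3).

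Replicate numbers did not pair the libraries throughout: deviations from the group means correlated at -0.149 to 0.448 between libraries of the same number, and 3 of 18 pairs exceeded 0.1. The highest values were both between BV-3 resistant and CK resistant libraries, 0.448 for replicate 2 and 0.369 for replicate 1, against -0.0622 for replicate 3. With the replicate block 0 members were called in each comparison, and the medians were 0.35 (BV-3 against CK, susceptible), 0.70 (BV-3 against CK, resistant), 0.35 (difference of both effects), 0.77 (resistant against susceptible, CK) and 1.09 (resistant against susceptible, BV-3). For single named genes, 3168 results under an alternative kept their direction and side of the threshold, 294 changed sign without a call on either side, 50 gained a call and 17 lost one. The lost calls were all of Zm00001eb378250 in the susceptible comparison. The gained calls include those of NewGene_1607 and NewGene_4811, which as line markers are no test.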
